A study of Mus musculus with 24 samples.

Results

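The 10 genes described here are Fkbp5, Tsc22d3, Sgk1, Pdk4, Zbtb16, Cdkn1a, Sult1a1, Plin4 and Ddit4, which respond to glucocorticoid hormones in many tissues, and Nr3c1, which encodes the glucocorticoid receptor. They were taken by gene symbol from a table of 55421 gene identifiers. All 10 were found, and all 10 were among the 14380 genes with enough counts to be tested. The table holds counts of 3′ messenger RNA tags (QuantSeq, a method that sequences the end of each polyadenylated transcript) from 24 samples of left brain hemisphere. The 4 groups of 6 samples were from Nox2 knockout mice given lipopolysaccharide (LPS), Nox2 knockout mice given phosphate-buffered saline (PBS), wild type mice given LPS and wild type mice given PBS. LPS, a bacterial cell wall molecule that sets off inflammation, was injected into the peritoneum at 1 µg per g body weight per day on 4 days, in a volume of 100 µl, and PBS was the vehicle. Every mouse was 3 months old and carried the strain label C57BL/6J. Nox2 forms the catalytic core of an oxidase that phagocytes use to make superoxide, and the labels give neither the disrupted part of its gene nor the origin of the control animals.

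Glucocorticoids are steroid hormones that the adrenal gland releases under the control of the hypothalamus and the pituitary, and systemic inflammation is a known stimulus of that release. In the cell they bind the glucocorticoid receptor, which leaves a complex of HSP90 and its co-chaperones, enters the nucleus and binds DNA at glucocorticoid response elements. Fkbp5, Tsc22d3 and Zbtb16 are widely used readouts of receptor activity in brain, where astrocytes, oligodendrocytes and blood vessel cells carry much of the known response.

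The libraries held between 2340184 and 5256169 counts, and levels are given below as CPM, counts scaled to a common library total. Cybb, the gene for Nox2, had 67.5 to 77.3 CPM in libraries labelled knockout after LPS, 63.1 to 76.2 CPM in those labelled knockout after PBS, 15.7 to 34.0 CPM in wild type after LPS and 0.853 to 2.496 CPM in wild type after PBS. Tags at the 3′ end check these labels only if they lie in the disrupted part, which is not known here, so a knockout is a library labelled so. The wild type LPS libraries 1 and 2 were already known to stand apart, and results that rest on them are given with and without them. Neuronal markers summed to 7464 CPM or more and astrocyte markers to 6219 CPM or more in every library, and none of either list was at 0. In RNA from a whole hemisphere, fewer cells of a type and less RNA per cell cannot be told apart.

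After LPS in knockout mice, Fkbp5, Sult1a1 and Plin4 rose and Nr3c1 fell. The 4 of 10 genes called at a Benjamini-Hochberg adjusted p under 0.05 by edgeR's quasi-likelihood test stand against 10.9% of all tested genes. In wild type mice LPS raised the same trio, Fkbp5, Sult1a1 and Plin4, and no other gene of the 10 was called, where the background was 18.1%. With 10 genes, such counts say little about the group, and the results lie in the single genes. The median log2 fold change over the 10 genes was 0.28 in knockout and 0.04 in wild type mice, beside medians over all tested genes of -0.0015 and -0.0088.

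**Figure D1:**
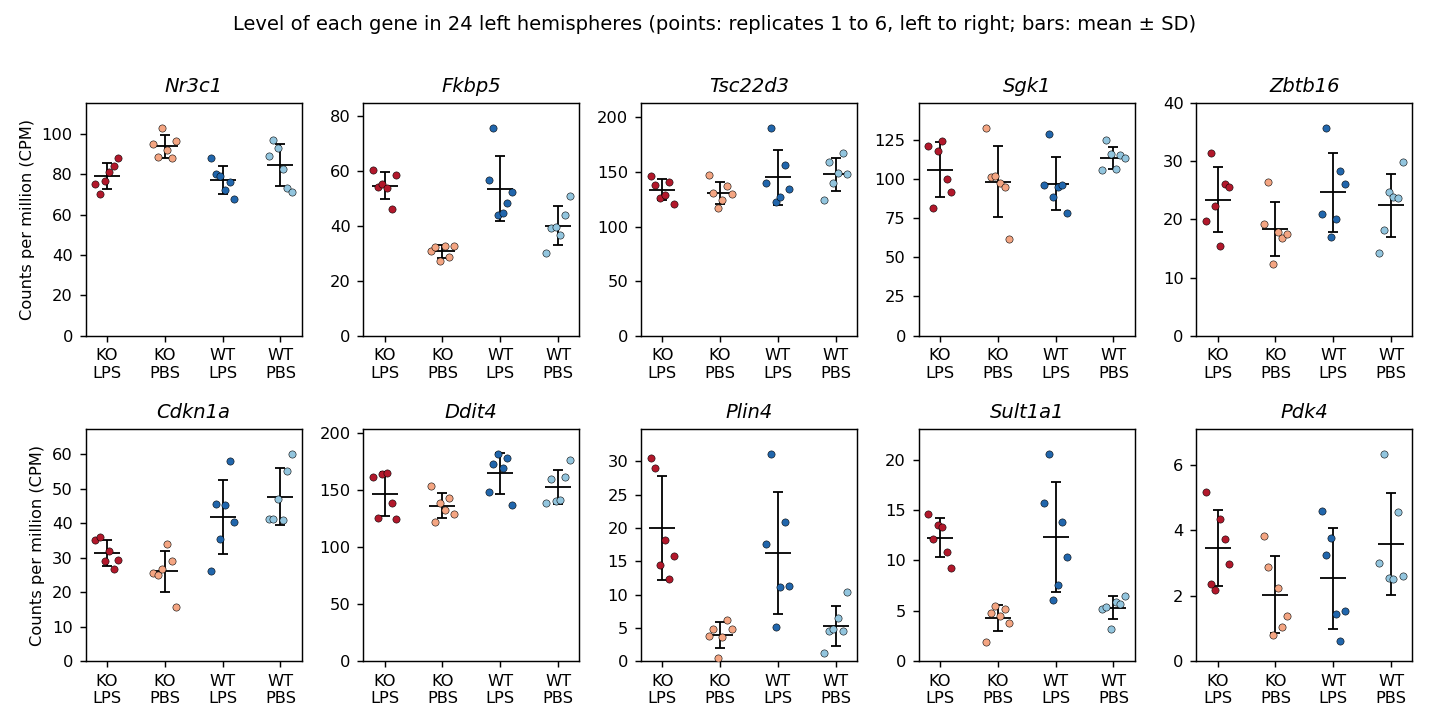
CPM of each of the 10 genes (a panel each, vertical axis from 0) in every library, with knockout LPS, knockout PBS, wild type LPS and wild type PBS from left to right. Points are single libraries, and bars are the group mean and SD (n = 6). For Fkbp5, Sult1a1 and Plin4 the knockout LPS points lie above all knockout PBS points, and for Cdkn1a the knockout PBS points lie below all wild type PBS points.

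Fkbp5 encodes FKBP51, a co-chaperone of HSP90 that lowers the affinity of the receptor for its hormone and so forms a feedback loop. In knockout mice its lowest, median and highest levels were 46.3, 54.7 and 60.3 CPM after LPS, against 27.3, 31.7 and 32.9 CPM after PBS. The 2 groups did not overlap, which held for 5.95% of all tested genes in this comparison. The rise of Fkbp5 was 0.83 ± 0.11 as a log2 fold change (SE, adjusted p = 5.67e-08 by edgeR), a 1.78-fold change. The lowest, median and highest levels in wild type mice were 44.0, 50.4 and 75.9 CPM after LPS, against 30.2, 39.5 and 51.1 CPM after PBS. These groups overlapped, with 3 of 6 LPS libraries above every PBS library and all 6 above the PBS mean. The rise in wild type was 0.44 ± 0.10 (adjusted p = 0.00142), or 1.35-fold. Without replicates 1 and 2 of the LPS group it was 0.26 (adjusted p = 0.0482).

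Sult1a1 encodes a sulfotransferase that conjugates phenols. In knockout mice it had 9.23, 12.7 and 14.6 CPM (lowest, median, highest) after LPS, against 1.92, 4.66 and 5.46 CPM after PBS. No LPS library of the knockout came within the range of the PBS libraries, and the log2 change was 1.51 ± 0.23 (SE, edgeR adjusted p = 3.06e-06). Wild type mice had 6.12, 12.1 and 20.6 CPM after LPS, against 3.19, 5.54 and 6.49 CPM after PBS. Here 5 of 6 LPS libraries lay above every PBS library, and replicate 3, the lowest, lay inside their range. The wild type change was 1.21 ± 0.22 (adjusted p = 4.82e-05) and fell to 0.82 (adjusted p = 0.00501) without replicates 1 and 2 of the LPS group, which held 15.7 and 20.6 CPM.

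Plin4 encodes perilipin 4, a protein of the lipid droplet surface. In knockout mice its lowest, median and highest levels were 12.4, 17.0 and 30.5 CPM after LPS, against 0.546, 4.32 and 6.24 CPM after PBS. Every LPS library lay above the highest PBS library, and the fitted rise was 2.32 ± 0.33 (SE, edgeR adjusted p = 6.02e-07), a 4.98-fold change. The levels in wild type mice were 5.18, 14.5 and 31.2 CPM after LPS, against 1.25, 4.75 and 10.4 CPM after PBS. In 5 of 6 wild type LPS libraries Plin4 exceeded the highest PBS library, and replicate 3 stood at 5.18 CPM. The rise was 1.65 ± 0.32 (adjusted p = 0.000118), or 3.13-fold. Without replicates 1 and 2 of that group it was 1.21 (adjusted p = 0.00522). Plin4 was also the most variable of the 10, with a biological coefficient of variation of 33.1%, against a median of 10.03% in genes of like level.

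Some tags of these genes may belong to neighbours. Sult1a1 ends in a short overlap with Sgf29, a chromatin factor gene on the opposite strand, and Plin4 in one with Hdgfl2. The strand setting of the counting is not given in the sources used here, so tags inside these overlaps cannot be told apart. Sgf29 changed with LPS by 0.30 ± 0.14 (edgeR adjusted p = 0.179) in knockout and 0.02 ± 0.14 (adjusted p = 0.941) in wild type mice. For Hdgfl2 the changes were 0.03 ± 0.07 (adjusted p = 0.898) in knockout and 0.06 ± 0.07 (adjusted p = 0.62) in wild type mice. Neither neighbour was called in any comparison.

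Promoter sequences are shown for the trio that rose in both genotypes and, for comparison, for Sgk1 and Tsc22d3, long-known receptor targets whose levels were not called. Each window is from RefSeq on build GRCm38.p6, runs 5′ to 3′ on the gene's own strand, and covers 250 bases before to 50 bases from the annotated start. Capitals mark the palindromic glucocorticoid response element, AGAACA and TGTTCT with 3 bases of any kind between them, and its single arms, AGAACA or TGTTCT on either strand. The windows are chr17:28486100-28486399 (minus strand) for Fkbp5, chr7:126676369-126676668 (minus) for Sult1a1, chr17:56109733-56110032 (minus) for Plin4, chr10:21993640-21993939 (plus) for Sgk1, which has 6 windows and is shown by the only one with the palindrome, and chrX:140600473-140600772 (minus) for Tsc22d3, shown by the only one of its 3 windows with such an arm.
Fkbp5: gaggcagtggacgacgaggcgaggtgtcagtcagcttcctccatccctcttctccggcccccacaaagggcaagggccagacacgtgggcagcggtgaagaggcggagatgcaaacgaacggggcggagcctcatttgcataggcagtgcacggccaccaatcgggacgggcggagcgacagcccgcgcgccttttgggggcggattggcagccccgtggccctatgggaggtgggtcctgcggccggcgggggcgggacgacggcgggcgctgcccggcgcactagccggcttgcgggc
Sult1a1: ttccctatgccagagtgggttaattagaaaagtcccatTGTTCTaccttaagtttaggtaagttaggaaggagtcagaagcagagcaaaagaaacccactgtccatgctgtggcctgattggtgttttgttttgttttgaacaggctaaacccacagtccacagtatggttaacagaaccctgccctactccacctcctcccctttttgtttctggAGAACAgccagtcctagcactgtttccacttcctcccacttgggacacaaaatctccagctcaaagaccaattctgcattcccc
Plin4: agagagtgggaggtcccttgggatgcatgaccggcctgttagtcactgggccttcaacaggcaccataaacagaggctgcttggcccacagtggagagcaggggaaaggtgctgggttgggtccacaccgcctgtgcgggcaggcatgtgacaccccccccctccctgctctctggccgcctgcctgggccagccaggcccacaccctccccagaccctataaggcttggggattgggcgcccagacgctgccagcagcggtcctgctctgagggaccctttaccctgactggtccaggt
Sgk1: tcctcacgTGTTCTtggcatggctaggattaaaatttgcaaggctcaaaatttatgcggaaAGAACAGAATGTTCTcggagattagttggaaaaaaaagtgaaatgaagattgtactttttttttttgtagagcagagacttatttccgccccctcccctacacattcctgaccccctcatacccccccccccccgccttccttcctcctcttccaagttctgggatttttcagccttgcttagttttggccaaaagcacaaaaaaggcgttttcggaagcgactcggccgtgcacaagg
Tsc22d3: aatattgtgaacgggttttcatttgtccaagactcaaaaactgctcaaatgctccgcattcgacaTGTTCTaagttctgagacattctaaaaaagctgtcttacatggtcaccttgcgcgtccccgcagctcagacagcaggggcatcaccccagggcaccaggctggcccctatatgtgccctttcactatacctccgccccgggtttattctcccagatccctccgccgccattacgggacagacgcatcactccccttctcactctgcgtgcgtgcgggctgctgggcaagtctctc

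Of the 10 genes, 8 had 16 such windows in the table used, and Zbtb16 and Nr3c1 had none. The full palindrome was found in 1 member, Sgk1, as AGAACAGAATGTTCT at chr10:21993701-21993715, 965 bases before the most downstream annotated Sgk1 start. It was rare among promoters, with 3 of 32851 windows (0.00913%) of the same length. A single arm stood in 5 of the 16 windows and in 3 of the 8 genes, Sgk1, Tsc22d3 and Sult1a1, beside 19.0% of all windows and 21.3% of all genes. The arms counted include those inside the palindrome. The windows of Fkbp5 and Plin4 held none of these letters. A match is a description of the sequence only, and response elements of these genes may lie outside windows of 300 bases.

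Tsc22d3 encodes GILZ, a leucine zipper protein that curbs NF-κB and AP-1 signalling. In knockout mice it had 121, 134 and 146 CPM (lowest, median, highest) after LPS, against 117, 130.3 and 147 CPM after PBS, and the groups lay on top of each other. Wild type mice had 122, 137 and 190.5 CPM after LPS, against 124, 148 and 167 CPM after PBS, with replicate 2 of the LPS group the highest. The log2 change was 0.03 ± 0.08 in knockout (95% interval -0.13 to 0.19, edgeR adjusted p = 0.888) and -0.03 ± 0.08 in wild type mice (-0.18 to 0.12, adjusted p = 0.848).

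Sgk1, a kinase that regulates ion channels and transporters, had 81.2, 109 and 124 CPM in knockout mice after LPS, against 61.8, 99.1 and 133 CPM after PBS. The ranges overlapped fully and the change was 0.11 ± 0.10 (SE, edgeR adjusted p = 0.611). In wild type mice Sgk1 had 78.3, 95.4 and 128 CPM after LPS, against 106, 114 and 125 CPM after PBS. In that genotype 5 of 6 LPS libraries lay below every PBS library and 1, replicate 2, lay above them all. The change over all 6 was -0.23 ± 0.10 (adjusted p = 0.125). It was -0.33 (adjusted p = 0.0191) without replicate 2 and -0.35 (adjusted p = 0.0153) without replicates 1 and 2. Over only the wild type libraries it was called too, with the same size of change (adjusted p = 0.0481).

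Zbtb16, a zinc finger transcription factor also called PLZF, had 15.4, 23.9 and 31.4 CPM in knockout mice after LPS, against 12.3, 17.7 and 26.5 CPM after PBS, and 16.9, 23.5 and 35.8 CPM in wild type mice after LPS, against 14.2, 23.7 and 29.9 CPM after PBS. All 4 ranges overlapped. Its LPS change was 0.31 ± 0.17 (SE, edgeR adjusted p = 0.286) in knockout and 0.16 ± 0.16 (adjusted p = 0.55) in wild type mice.

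Pdk4, the kinase that shuts off the pyruvate dehydrogenase complex, was the lowest of the 10 genes in counts, with 2 to 33 tags per library. It had 2.18, 3.36 and 5.16 CPM in knockout mice after LPS, against 0.819, 1.81 and 3.84 CPM after PBS, and all 6 LPS libraries lay above the PBS mean. In wild type mice it had 0.615, 2.40 and 4.58 CPM after LPS, against 2.53, 2.80 and 6.34 CPM after PBS, and 3 of 6 LPS libraries lay below every PBS library. The change was 0.76 ± 0.35 (95% interval 0.04 to 1.47, edgeR adjusted p = 0.198) in knockout and -0.54 ± 0.33 (-1.22 to 0.13, adjusted p = 0.29) in wild type mice. At this depth neither passed the adjustment.

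Ddit4 encodes REDD1, an inhibitor of mTORC1 that responds to stress, hypoxia and glucocorticoids. It had 125, 150.0 and 164 CPM in knockout mice after LPS, against 122, 135 and 153 CPM after PBS, and 137, 171 and 182 CPM in wild type mice after LPS, against 139, 150.1 and 176 CPM after PBS. The ranges overlapped in both genotypes, and the changes were 0.11 ± 0.07 (SE, edgeR adjusted p = 0.401) in knockout and 0.11 ± 0.07 (adjusted p = 0.301) in wild type mice.

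**Figure D2:**
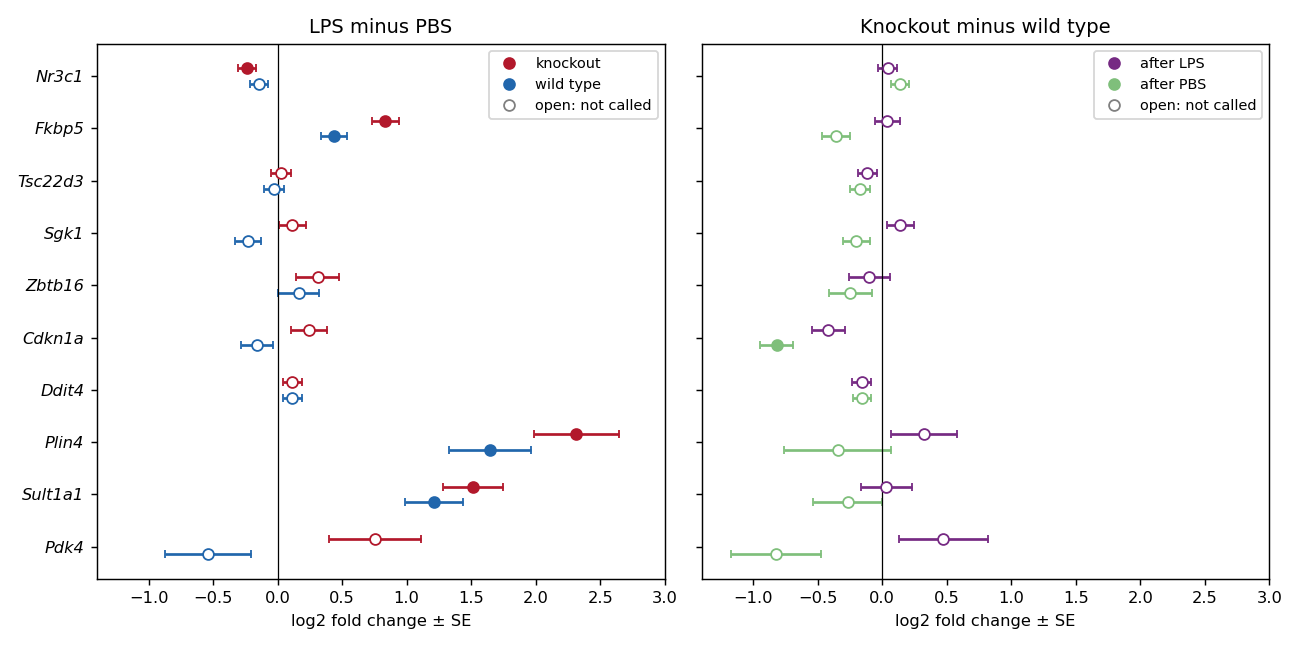
Log2 fold change ± SE (horizontal axes) of each of the 10 genes for LPS minus PBS in each genotype (left) and knockout minus wild type after each injection (right). Filled points were called at an adjusted p under 0.05. Fkbp5, Sult1a1 and Plin4 lie to the right of 0 for LPS in both genotypes, and Cdkn1a lies to the left of 0 for genotype after PBS.

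Nr3c1 encodes the receptor itself. In knockout mice it had 70.2, 79.0 and 88.0 CPM (lowest, median, highest) after LPS, against 88.1, 93.4 and 103 CPM after PBS. The groups did not overlap, although the highest LPS and the lowest PBS library nearly met. Nr3c1 fell by 0.24 ± 0.07 as a log2 change (SE, adjusted p = 0.0171 by edgeR), the opposite direction from Fkbp5, Sult1a1 and Plin4. The call was lost without replicate 3 of the PBS group (-0.21, adjusted p = 0.0603) and without replicate 1 of the LPS group (-0.22, adjusted p = 0.0561). In wild type mice Nr3c1 had 67.7, 77.8 and 88.0 CPM after LPS, against 71.4, 85.8 and 96.9 CPM after PBS, with wide overlap. That change was -0.15 ± 0.07 (adjusted p = 0.158), and -0.21 (adjusted p = 0.0463) without replicates 1 and 2 of the LPS group.

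The receptor's partners were described from a list of 14 genes, of which 13 were tested. In knockout mice 1 rose with LPS and 4 fell, where 7.05% of all tested genes were called higher and 3.82% lower, and in wild type mice 1 rose and 4 fell, where 10.9% were higher and 7.12% lower. The number that fell in knockout mice was 2 without replicate 5 of the PBS group and 6 without replicate 1 of the PBS group or replicate 5 of the LPS group. Hsp90aa1, the inducible HSP90 that holds the unbound receptor, fell by 0.24 ± 0.05 (SE, edgeR adjusted p = 0.000967) in knockout and by 0.31 ± 0.05 (adjusted p = 1.28e-05) in wild type mice. Fkbp4 encodes FKBP52, the co-chaperone that favours hormone binding and competes with FKBP51. It fell by 0.25 ± 0.06 (adjusted p = 0.00135) in knockout and by 0.22 ± 0.06 (adjusted p = 0.00458) in wild type mice, opposite to Fkbp5. Ptges3, the co-chaperone p23, fell by 0.20 ± 0.06 in knockout (adjusted p = 0.0284, and above 0.05 without replicate 3, 5 or 6 of the PBS group or 3 or 6 of the LPS group, at most 0.0856) and by 0.24 ± 0.06 in wild type mice (adjusted p = 0.00421). Nr3c2, the mineralocorticoid receptor, which also binds corticosterone, changed by -0.16 ± 0.13 (adjusted p = 0.549) in knockout and fell by 0.43 ± 0.13 (adjusted p = 0.0158) in wild type mice. Abcb1a, an efflux pump of the blood-brain barrier that exports some steroids, rose by 0.81 ± 0.08 in knockout and 1.07 ± 0.08 in wild type mice (adjusted p = 2.46e-10 and 1.21e-14). Between genotypes after LPS, Abcb1a was the 1 gene of the 13 called, at -0.31 in knockout against wild type mice (edgeR adjusted p = 0.0272). Of all tested genes, 0.786% were called lower there. Leaving out 1 library gave 0 or 1 gene of the list called lower.

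Cdkn1a encodes p21, an inhibitor of the cell cycle that glucocorticoids and p53 both induce. It was the only one of the 10 genes called between genotypes, in PBS-treated mice, where 0.132% of all tested genes were called, 0.0417% as higher and 0.0904% as lower. Its lowest, median and highest levels were 15.8, 26.1 and 34.0 CPM in knockout PBS mice, against 40.8, 44.2 and 60.1 CPM in wild type PBS mice. All 6 knockout libraries lay below all 6 wild type libraries, which held in one direction or the other for 0.417% of all tested genes. The log2 difference was -0.82 ± 0.13 (SE, adjusted p = 0.000164 by edgeR), and it stayed between -0.92 and -0.73 when any single library was left out.

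After LPS, Cdkn1a had 26.7, 30.7 and 36.1 CPM in knockout mice, against 26.2, 42.8 and 58.1 CPM in wild type mice. The ranges overlapped. Replicate 1 of the wild type group, at 26.2 CPM, was the lowest of all 12 LPS libraries. Replicate 3 of that group, at 35.3 CPM, also lay below the highest knockout library. The difference was -0.42 ± 0.13 (SE, edgeR adjusted p = 0.109), and without wild type replicate 1 it was -0.51 (adjusted p = 0.0145). None of the 10 genes was called between genotypes after LPS, where the background was 1.05%; 2 had an unadjusted p under 0.05, as did 11.4% of all tested genes, and DESeq2 called 0. LPS itself changed Cdkn1a by 0.24 ± 0.14 (adjusted p = 0.321) in knockout and -0.16 ± 0.12 (adjusted p = 0.411) in wild type mice.

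Of 16 other p53 targets listed, 14 were tested, and edgeR called 0 between genotypes after PBS, with 1 at an unadjusted p under 0.05 and 0 called by DESeq2. With 0.132% of all tested genes called, 0 of 14 does not stand apart from the background. Their median difference was 0.01, beside -0.0000746 over all tested genes. The genes whose levels over the 24 libraries were most like those of Cdkn1a were Sdf2l1, Arhgap25 and Yju2, by the root mean square difference of centred log2 CPM (0.30, 0.33 and 0.33). Sdf2l1, a chaperone gene of the endoplasmic reticulum, averaged 5.91 ± 1.37 CPM in knockout PBS and 8.46 ± 1.35 CPM in wild type PBS mice (SD, n = 6). Its difference, -0.48 ± 0.17 (SE, edgeR adjusted p = 0.354), was not called. Of 8 markers of the olfactory bulb, 4 were called lower in knockout PBS than in wild type PBS libraries. The marker sums were 125 to 151 CPM against 142 to 255 CPM. Their part in the Cdkn1a difference was not tested.

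The other 9 genes were not called between genotypes after PBS, with log2 differences below 0 for 8 of them and above 0 for Nr3c1. Fkbp5 averaged 30.8 ± 2.36 CPM in knockout PBS and 40.2 ± 7.002 CPM in wild type PBS mice (SD, n = 6), a difference of -0.36 ± 0.11 (SE, edgeR adjusted p = 0.294). All 6 knockout values lay below the wild type mean. Pdk4 differed by -0.82 ± 0.35 (adjusted p = 0.471), Sgk1 by -0.20 ± 0.10 (adjusted p = 0.592), Tsc22d3 by -0.17 ± 0.08 (adjusted p = 0.499) and Ddit4 by -0.16 ± 0.07 (adjusted p = 0.535). The median over the 10 genes was -0.26. In all, 5 of the 10 genes had an unadjusted p under 0.05, where 8.73% of all tested genes did. The 5 were Cdkn1a, Fkbp5, Pdk4, Tsc22d3 and Ddit4, and Sgk1 was not among them. The 10 genes share the same 12 libraries, so these values are no set of independent observations. Fkbp5 and Cdkn1a also lie near each other, at chr17:28399094-28517527 and chr17:29090976-29100727. The part of this position in their differences was not tested. Without the low count filter Fkbp5 was called as well (-0.37, edgeR adjusted p = 0.0155), with nearly the same size of difference. That fit called 88 of 32360 genes, against 19 of 14380 with the filter.

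The LPS responses of the genotypes were compared by their difference, which contains the PBS groups too. For Fkbp5 the group means after LPS were close, 54.8 ± 4.89 CPM in knockout and 53.7 ± 11.9 CPM in wild type mice (SD, n = 6), a difference of 0.04 ± 0.10 (SE, edgeR adjusted p = 0.935). The response in knockout minus that in wild type was 0.40 ± 0.15 (95% interval 0.10 to 0.70, adjusted p = 0.357). None of the 10 responses was called different between genotypes, where the background was 0.00695%, or 1 gene. At an unadjusted p under 0.05 there were 4, Fkbp5, Pdk4, Sgk1 and Cdkn1a, where 9.78% of all tested genes were, and DESeq2 called 0 of the 10. The difference of responses was 1.30 ± 0.49 for Pdk4 (adjusted p = 0.357), 0.34 ± 0.15 for Sgk1 (adjusted p = 0.433) and 0.40 ± 0.18 for Cdkn1a (adjusted p = 0.466), all positive.

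For Fkbp5 that outcome turned on libraries 1 and 2 of the wild type LPS group, with 56.9 and 75.9 CPM, against 44.0 to 52.5 CPM in replicates 3 to 6. Without these 2 libraries the difference of responses was 0.58 (adjusted p = 0.0139) and Fkbp5 was called, as 1 of 249 genes. Neutrophil markers summed to 139 and 127 CPM in these libraries, against 248 to 716 CPM in the other 4, and monocyte and macrophage markers to 169 and 147 CPM, against 201 to 268 CPM. Olfactory markers summed to 113 and 115 CPM, against 168 to 204 CPM. The part of these differences in the Fkbp5 result was not tested.

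**Figure D3:**
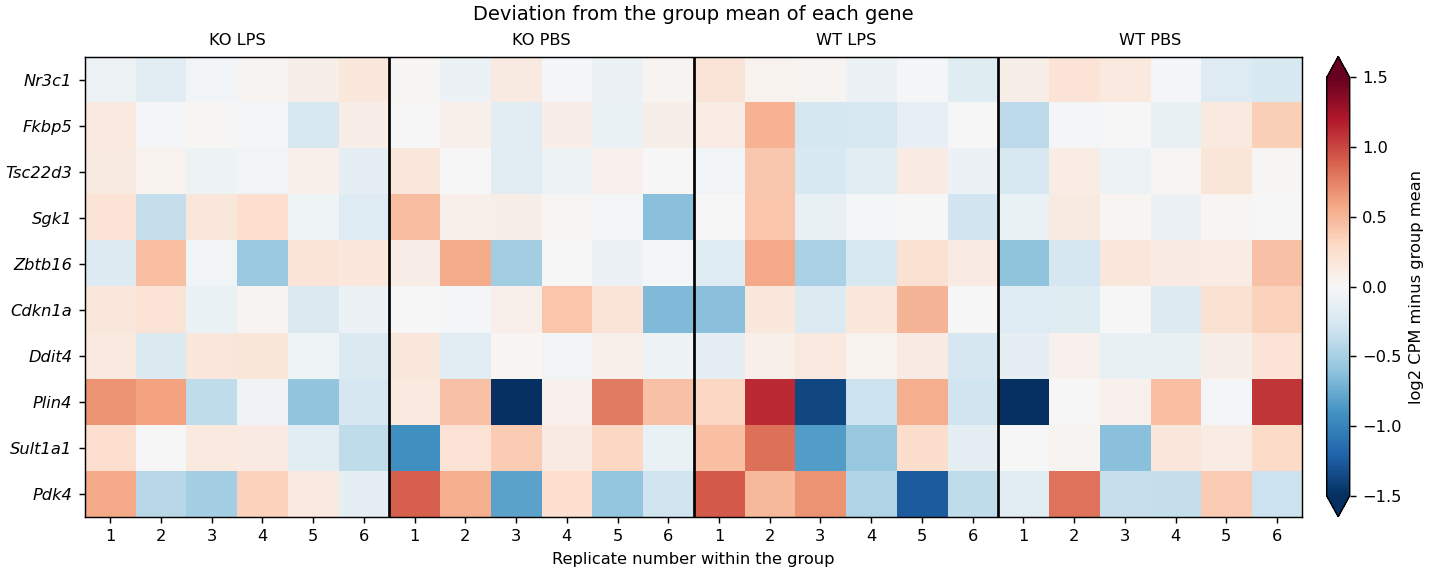
Deviation of log2 CPM from the group mean for each of the 10 genes (rows) in each of the 24 libraries (columns, by group), with the colour scale ending at -1.5 and 1.5. Replicate 2 of the wild type LPS group is above its group mean for most genes, and replicate 1 of the wild type PBS group is below it.

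Within groups, a few libraries were high or low for several of the 10 genes. Replicate 2 of the wild type LPS group was the highest of 6 for 6 genes, Fkbp5, Tsc22d3, Sgk1, Zbtb16, Sult1a1 and Plin4. Replicate 3 of that group was the lowest for 5 of them, all but Sgk1. In the wild type PBS group, replicate 6 was the highest for 6 genes and replicate 1 the lowest for 6. How often each library was the highest or lowest over all tested genes was not counted, so these counts have no background. Wild type LPS replicate 2 also differed from replicates 3 to 6 over all genes compared. Its chi-square per degree of freedom was 4.00 to 5.16 against them and 1.91 against replicate 1. Every one of the 10 genes had a biological coefficient of variation above the median of genes of like level, by 1.13 to 3.30 times.

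Among all 45 pairs of the genes, 33 had a positive Pearson correlation of their deviations from the group mean over the 24 libraries, with a median of 0.19. Pairs drawn from all tested genes were not examined, so these values have no background beside them. By 100000 permutations within groups and Benjamini-Hochberg adjustment over the 45 pairs, 7 pairs passed 0.05, of which 6 were positive. Fkbp5 and Plin4 had r = 0.70 (permutation p = 0.00039, adjusted 0.0132) and rho = 0.55 (permutation p = 0.0114, adjusted 0.102). Tsc22d3 and Plin4 had r = 0.69 (permutation p = 0.0006, adjusted 0.0132) and rho = 0.68 (permutation p = 0.00103, adjusted 0.0463), and theirs was the only pair past the threshold by both. Zbtb16 and Plin4 had r = 0.69 (permutation p = 0.00088, adjusted 0.0132) and rho = 0.55 (permutation p = 0.0106, adjusted 0.102). The negative pair was Cdkn1a and Nr3c1, with r = -0.54 (permutation p = 0.00648, adjusted 0.0438) and rho = -0.57 (permutation p = 0.00851, adjusted 0.102). Without the 2 libraries farthest from the median of the first gene, r was 0.59 for Fkbp5 and Plin4, 0.59 for Tsc22d3 and Plin4, 0.67 for Zbtb16 and Plin4 and -0.51 for Cdkn1a and Nr3c1. Of the other 3 pairs, Sgk1 and Ddit4 had r = 0.60 over all libraries and 0.64 without the 2. Fkbp5 and Zbtb16 had 0.60 and then 0.40, and Tsc22d3 and Zbtb16 had 0.57 and then 0.38. The r values without 2 libraries keep the group means of all libraries. The test without them recentred each group on its remaining libraries and used fewer permutations, so these r values are not the values tested. No pair passed the adjustment in that test, so none of the 7 calls held.

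A wider set held 33 other glucocorticoid targets, of which 31 were tested. In knockout mice 10 rose with LPS and 0 fell, against the background shares given for the receptor's partners. In wild type mice 12 rose and 2, Klf9 and Errfi1, fell. Errfi1, a feedback inhibitor of EGF receptor signalling, changed by -0.31 ± 0.11 (SE, edgeR adjusted p = 0.0464) and was called in 4 of 12 fits without a single library, with adjusted p up to 0.141. The number that fell then ranged from 1 to 3. The median log2 change was 0.17 in knockout and 0.15 in wild type mice. Many of these genes are known to respond to inflammatory signals too, and the 2 inputs cannot be told apart here. The metallothionein genes Mt1 and Mt2, metal-binding proteins induced by glucocorticoids and by cytokines, rose by 1.01 ± 0.05 and 0.79 ± 0.06 in knockout (SE, edgeR adjusted p = 2e-19 and 3.44e-15) and by 1.06 ± 0.05 and 0.82 ± 0.06 in wild type mice (adjusted p = 2.49e-20 and 4.06e-16). Cebpd, a transcription factor of the acute phase response, rose by 1.59 ± 0.14 in knockout and 1.25 ± 0.13 in wild type mice (adjusted p = 4.74e-12 and 2.95e-10).

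Per1 and Klf9 were 2 of these targets. Per1, a clock gene with receptor binding sites, changed by -0.13 ± 0.07 (SE, edgeR adjusted p = 0.281) in knockout and rose by 0.26 ± 0.07 (adjusted p = 0.00664) in wild type mice. The difference of these responses was -0.40 ± 0.10 (adjusted p = 0.199). Klf9, a Krüppel-like transcription factor, changed by -0.06 ± 0.05 (adjusted p = 0.494) in knockout and fell by 0.17 ± 0.05 (adjusted p = 0.00612) in wild type mice, although glucocorticoids are known to induce it. Between genotypes edgeR called none of the 31, neither after PBS (12 at an unadjusted p under 0.05, 1 called by DESeq2) nor after LPS (5 at an unadjusted p under 0.05, 0 called by DESeq2). Of all tested genes, 8.73% after PBS and 11.4% after LPS had an unadjusted p under 0.05.

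**Figure D4:**
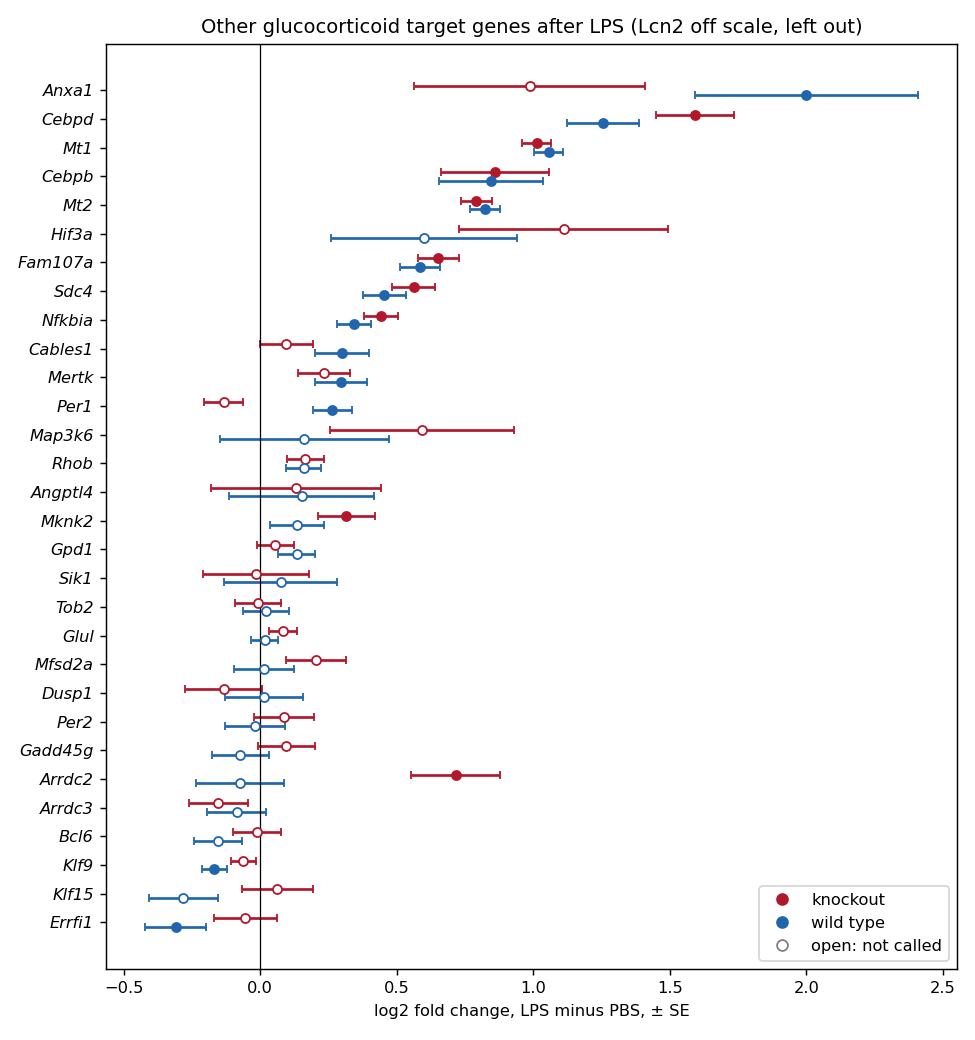
Log2 fold change ± SE (horizontal axis) for LPS minus PBS of the other glucocorticoid targets tested, in knockout (red) and wild type mice (blue). Lcn2 lies off the scale and is left out. Filled points were called, among them Mt1, Mt2 and Cebpd in both genotypes.

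The hormonal axis itself is only partly present in a hemisphere. Of 8 genes of its peptides and receptors, 5 were tested. Avp, the vasopressin gene, which acts with CRH on the pituitary, rose by 0.89 ± 0.23 (SE, edgeR adjusted p = 0.0053, but not called by DESeq2 at 0.86, adjusted p = 0.0931) in knockout and by 1.40 ± 0.26 (adjusted p = 6.84e-05) in wild type mice. Crh changed by -0.29 ± 0.13 (adjusted p = 0.157) in knockout and -0.17 ± 0.12 (adjusted p = 0.348) in wild type mice. Pomc was called in knockout mice at 3.13 ± 0.71 (adjusted p = 0.00133), but without replicate 4 of the knockout LPS group the change was -0.07 (adjusted p = 0.942), and DESeq2 gave no p for it. Pituitary markers summed to 2148 CPM in that library and to 46.5 CPM or less in every other. Leaving it out changed the call of none of the 10 genes.

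The genes nearest to each responder over the 24 libraries were found by the same root mean square difference, among 11173 genes with a mean of at least 5 CPM. That difference keeps the group means in, so a similar LPS change is part of the choice and no separate result. For Fkbp5 the nearest genes were Plce1 (0.20), Fam107a (0.21) and Sdc4 (0.21), of which Fam107a and Sdc4 were on the list of other targets. Fam107a, a stress-induced gene of astrocytes, averaged 369 ± 28.04 CPM in knockout LPS, 235 ± 24.1 CPM in knockout PBS, 381 ± 64.2 CPM in wild type LPS and 254 ± 23.1 CPM in wild type PBS mice (SD, n = 6). It rose in both genotypes, by 0.65 ± 0.08 in knockout and 0.59 ± 0.07 in wild type mice (SE, edgeR adjusted p = 4.82e-09 and 3.2e-08). Sult1a1 was nearest to Rnase4 (0.39), Etnppl (0.40) and Agt (0.42), the last being the angiotensinogen gene of astrocytes. Agt rose by 1.03 ± 0.08 in knockout and 0.93 ± 0.08 in wild type mice (adjusted p = 1.16e-13 and 1.57e-12). Plin4 was nearest to Pglyrp1 (0.75), Ms4a6b (0.76) and Apobec3 (0.78). These differences scale with a gene's own spread, which was 1.23 for Plin4, 0.76 for Sult1a1, 0.44 for Cdkn1a and 0.38 for Fkbp5. Nr3c1 was nearest to Btbd8 (0.10), Bex1 (0.11) and Mpc2 (0.11), and its own spread over the libraries was 0.16 on this scale.

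**Figure D5:**
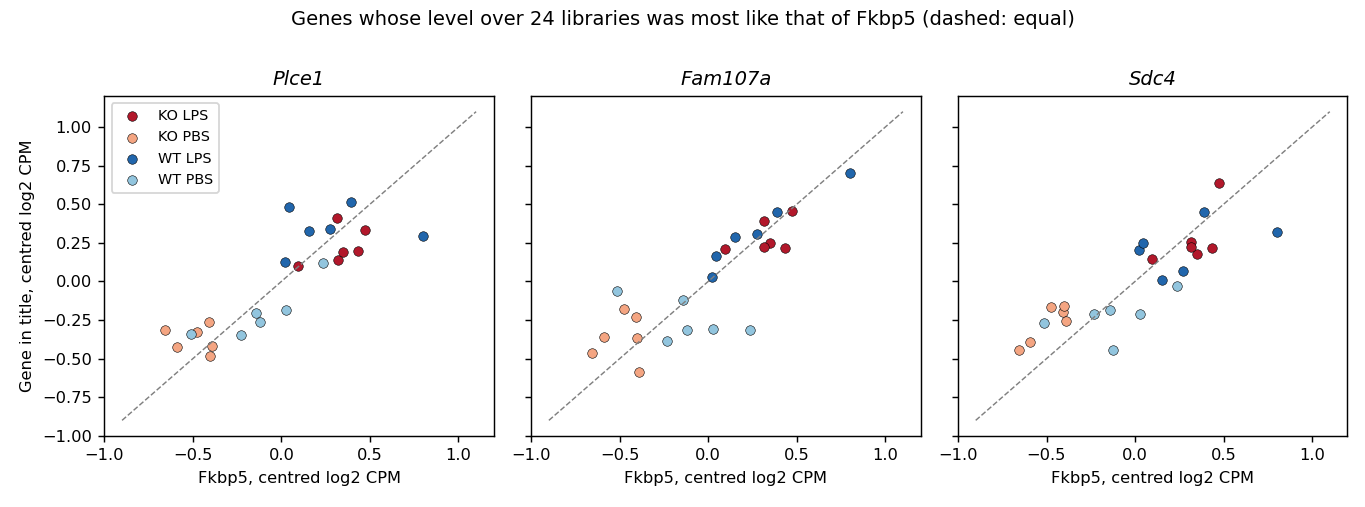
Centred log2 CPM of Plce1, Fam107a and Sdc4 (vertical axes, a panel each) against that of Fkbp5 (horizontal axis) in the 24 libraries, each gene centred on its mean over the libraries. Points are libraries coloured by group, the dashed line marks equal values, and the LPS libraries lie mostly to the upper right of the PBS libraries. These genes were chosen for their likeness to Fkbp5 over the same libraries.

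Lists of related genes were set beside the 10 as well. Plin2, the perilipin of most lipid droplets, rose by 0.69 ± 0.20 in knockout (SE, edgeR adjusted p = 0.018, but 0.113 without replicate 1 of the LPS group and 0.0724 without replicate 5 of the PBS group) and by 1.21 ± 0.19 in wild type mice (adjusted p = 2.86e-06). Beside it, Plin4 rose by 2.32 in knockout and 1.65 in wild type mice. The difference of these Plin4 responses was 0.67 ± 0.49 (SE, edgeR adjusted p = 0.691) and was not called. Of 11 tested PPAR targets, a family of lipid genes to which Plin4 and Pdk4 also belong, 3 rose and 0 fell in knockout, and 3 rose and 1 fell in wild type mice. Ucp2, a carrier of the inner mitochondrial membrane, rose by 0.81 ± 0.14 in knockout and 1.33 ± 0.13 in wild type mice (adjusted p = 2.52e-05 and 4.65e-11). Of 22 tested paralogs of the 10 genes, 2 rose and 3 fell in knockout mice, a share above the 10.9% of all tested genes called there. In wild type mice 2 rose and 2 fell, a share near the 18.1% of all tested genes. The paralogs Fkbp4, Plin2 and Nr3c2 were also counted on other lists above. Pdk2, the paralog of Pdk4 that is common in brain, changed by 0.07 ± 0.08 (adjusted p = 0.735) in knockout and rose by 0.43 ± 0.09 (adjusted p = 0.00019) in wild type mice. Of 14 tested stress genes of hypoxia or the integrated stress response, to which Ddit4 is related, 3 were higher and 1 lower in knockout, and 3 higher and 3 lower in wild type mice. The background shares for the PPAR and stress lists are those given above, 10.9% called either way in knockout and 18.1% in wild type mice. Between genotypes after LPS, 1 gene of each of these lists was called lower in knockout, where 0.786% of all tested genes were. The PPAR target was Ucp2 (-0.51, edgeR adjusted p = 0.021). Adm, the hypoxia-induced vasodilator adrenomedullin, rose by 1.38 ± 0.17 in knockout and 2.03 ± 0.17 in wild type mice (adjusted p = 3.2e-08 and 1.68e-13).

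Markers of other cell types moved with LPS as well. Of all tested genes, 10.9% were called either way in knockout and 18.1% in wild type mice. Of 7 tested neutrophil markers, 7 rose in both genotypes, with sums of 93.3 to 398 CPM in knockout LPS, 9.04 to 43.2 CPM in knockout PBS, 127 to 716 CPM in wild type LPS and 9.49 to 20.8 CPM in wild type PBS libraries. Of 8 tested monocyte and macrophage markers, 8 rose in both genotypes, with sums of 105 to 165 CPM in knockout LPS, 12.8 to 22.6 CPM in knockout PBS, 147 to 268 CPM in wild type LPS and 12.2 to 24.2 CPM in wild type PBS libraries. Of 10 microglia markers, 8 rose in each genotype, while 0 fell in knockout and 1 in wild type mice. Their sums were 527 to 705 CPM in knockout LPS, 248 to 293 CPM in knockout PBS, 650.2 to 859 CPM in wild type LPS and 266 to 321 CPM in wild type PBS libraries. Pericyte and smooth muscle markers rose in 6 of 9 cases in knockout and 7 of 9 in wild type mice, and 4 of 4 erythrocyte markers fell in both, with a median log2 change of -3.38 in knockout and -3.31 in wild type mice. Of 12 endothelial markers, 11 rose in knockout and 12 in wild type mice, with sums of 577 to 665 CPM in knockout LPS, 300.0 to 373 CPM in knockout PBS, 661 to 790 CPM in wild type LPS and 326 to 364 CPM in wild type PBS libraries. Of 12 astrocyte markers, 5 rose and 0 fell in knockout, and 7 rose and 2 fell in wild type mice. Their sums were 6411 to 6910 CPM in knockout LPS, 6256 to 6441 CPM in knockout PBS, 6488 to 6853 CPM in wild type LPS and 6219 to 6376 CPM in wild type PBS libraries. Neuronal markers summed to 7498 to 8029 CPM in knockout LPS, against 8315 to 8640 CPM in knockout PBS, and to 7464 to 7695 CPM in wild type LPS, against 8347 to 8584 CPM in wild type PBS libraries. Of 12 oligodendrocyte markers, 3 rose and 4 fell in knockout, and 3 rose and 5 fell in wild type mice. No endothelial marker was at 0 in any library. The part of cell composition in the rises of Fkbp5, Sult1a1 and Plin4 and in the fall of Nr3c1 was not tested.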

How the data were processed

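Tags near the 3′ end of polyadenylated transcripts were sequenced from 24 left hemispheres. The authors deposited whole-number counts per gene, and per the submitters' processing notes these were made with bcl2fastq, STAR 2.7.3a and featureCounts of Subread 2.0.0 on build mm10 (GRCm38), with R 3.6.1 and DESeq2 1.26.0 also named. Not given in the sources used here are the annotation release, how strand and multi-mapped reads were handled, and whether duplicates or molecular identifiers were used. Of the 55421 identifiers, 267 without a symbol held 0.00933 to 0.022% of a library's counts. Precision from depth covers counting error only.

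All 24 libraries entered 1 fit with edgeR 4.0.16 (R 4.3.3), with a mean per group, TMM normalisation, filterByExpr at a minimum count of 10 and the quasi-likelihood F test on 20 residual degrees of freedom. P-values were Benjamini-Hochberg adjusted over 14380 genes within each of 5 comparisons, with calls made at an adjusted p under 0.05. CPM used TMM library sizes; deviations and likeness used log2 CPM with a prior count of 2. Replicates differed by more than counting noise, with chi-square per degree of freedom from 1.44 to 5.16. The labels number 6 samples a group without naming animals, so p-values measure the spread between these samples. The 10 genes and all lists were chosen with earlier results of these data known, so counts over them are descriptions. From each pathway list, the text may name up to 4 genes with the smallest p for LPS in wild type mice, up to 2 with the smallest p among those called in each other comparison, and Per1, Klf9, Mt1, Mt2 and Nr3c2. For each called gene of the 10, the 3 genes most like it are named, predicted and Rik genes left out. Alternatives were other size factors (DESeq2's and upper-quartile), no filter, DESeq2 1.42.0, fits on 2 groups, a replicate block and leaving out libraries. The fit was tested on simulated counts. A simulated log2 change of 0.5 was recovered in 41.8% of changed genes for the difference of responses. In the other comparisons it was recovered in 63.6 to 76.1%. The simulated spread followed the trend over genes of like level, while all 10 genes varied more than the median of such genes.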

Additional observations from a re-analysis of the deposited data

Results flagged for a closer look

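Sgk1 in replicate 2 of the wild type LPS group stood at 128 CPM, far from the other 5 libraries of that group, which held 78.3 to 96.2 CPM. It was the 1 value of this kind among 40 groups of 6 values, and chance gives such a value in about 1 of 20 groups. The same library was the highest of its group for 6 of the 10 genes, a count without a share over all tested genes beside it.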

How the results depend on the processing

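Of 1040 values of the 10 genes under alternatives, 997 kept direction and side of the threshold, 2 lost a call, 11 gained one and 30 changed sign, all of them uncalled; the cause was not tested. Over all tested genes, 19 were called between genotypes after PBS, 151 after LPS and 1 for the difference of responses. Without the low count filter 88 genes and 2 of the 10 (Cdkn1a and Fkbp5) were called between genotypes after PBS, 293 and 1 (Cdkn1a) after LPS, and 67 and 1 for the difference of responses (Sgk1, 0.36, adjusted p = 0.038), and Sgk1 was called for LPS in wild type mice (-0.25, adjusted p = 0.00157). With 2 groups only, 33 genes were called between genotypes after PBS. DESeq2 called 3 genes for the difference of responses. Wild type LPS replicates 1 and 2, which an earlier look at these data had set apart, were also left out together. Then 2898 of 14684 tested genes and 5 of the 10 were called for LPS in wild type mice. Of these 5, Fkbp5 (edgeR adjusted p = 0.0482) and Nr3c1 (adjusted p = 0.0463) lay close to the threshold. Between genotypes after LPS, 561 genes and 1 of the 10 (Cdkn1a, -0.50, adjusted p = 0.0153) were called. For the difference of responses, 249 genes and 1 of the 10 (Fkbp5) were called. Zbtb16 then differed by 0.0202 between genotypes after LPS. The difference of responses of Ddit4 turned to 0.0023 with DESeq2 size factors or the DESeq2 test, 0.011 with upper-quartile factors and 0.014 without a filter. The replicate block gave 39 genes between genotypes after PBS, 273 after LPS and 8 for the difference of responses, and changed no call of the 10. The replicate numbers do not pair samples: same-numbered libraries correlated at -0.0611 to 0.0837. Leaving out 1 library gave 13 to 32 genes between genotypes after PBS, 72 to 289 genes and 0 to 1 of the 10 after LPS, and 1 to 20 genes for the difference of responses. In these fits the LPS change of Tsc22d3 ranged from -0.12 to 0.0167 in wild type and from -0.00066 to 0.0623 in knockout mice. Between genotypes after LPS, Fkbp5 ranged from -0.0158 to 0.17, Sult1a1 from -0.12 to 0.25 and Zbtb16 from -0.20 to 0.0372, and the difference of responses of Ddit4 from -0.0506 to 0.0427. Of the 45 pairs, 7 were called over all libraries, 0 without the 2 farthest libraries and 1 by Spearman's rho, an alternative chosen after seeing the data. With 2340184 to 5256169 counts a library, Pdk4, at 2 to 33 tags, had the fewest tags of the 10.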

Other observations

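Arrdc2, an arrestin domain gene on the list of other glucocorticoid targets, averaged 17.1 ± 3.34 CPM in knockout LPS, 10.54 ± 1.79 CPM in knockout PBS, 13.3 ± 4.56 CPM in wild type LPS and 13.8 ± 2.15 CPM in wild type PBS libraries (SD, n = 6). It rose with LPS in knockout mice by 0.72 ± 0.16 (log2 fold change with SE, adjusted p = 0.00136 by edgeR) and was not called in wild type mice (-0.07 ± 0.16, adjusted p = 0.815). The difference of these responses was 0.79 ± 0.23 (adjusted p = 0.268), so the responses were not shown to differ. Arrdc2 was chosen after its values were seen.

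AC154912.3, an annotated transcript inside Fkbp5 on the same strand, held 592 tags over all libraries, against 4081 for Fkbp5. It rose with LPS in knockout mice by 0.75 ± 0.26 (SE, edgeR adjusted p = 0.0498), and in wild type mice the change was 0.25 ± 0.22 (adjusted p = 0.496). Between knockout and wild type mice after PBS it differed by -0.76 ± 0.25 (adjusted p = 0.317). It too was chosen after its values were seen.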
